A study of Mus musculus with 16 samples.

Results

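The six-mark chromatin map of wild-type neural stem cells consists of the regions enriched for H3K4me3, H3K27ac, H3K4me1, H3K27me3, H3K36me2 and H3K36me3 on the 19 mouse autosomes. It was taken from the 6 wild-type histone lists of a chromatin immunoprecipitation and sequencing (ChIP-seq) series, and it holds 99806 enriched regions, called islands, of the 213103 islands in all 13 lists of the series. With chromosomes X and Y the same 6 lists hold 109610 islands. The cells were wild-type neural stem cells derived from the cortex of the telencephalon at E14.5, grown as neurospheres with bFGF and EGF, plated on Matrigel and fixed with formaldehyde near confluence. No drug treatment and no strain is named in the labels, and all 6 libraries share these conditions and differ in the antibody. The series was designed around Setd5, a gene for a SET-domain chromatin protein, and its Setd5+/- and SETD5-V5 lists are not compared here. Each mark has 1 library and no replicate, so no value below carries a replicate error or a test, and ranges over the 19 autosomes describe how evenly a value holds along the genome. In these bulk lists, marks lying together in the same cells and marks lying at the same place in different cells or alleles cannot be told apart, nor can fewer marked cells and less mark per cell.

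The marks are chemical groups on the tail of histone H3. H3K4me3 lies at the starts of genes, H3K4me1 at enhancers and beside promoters, and H3K27ac at promoters and enhancers in use. H3K27me3 is laid down by the Polycomb complex PRC2 over silenced developmental regulators, and a promoter with both H3K4me3 and H3K27me3 is known as bivalent. H3K36me3 is added by Setd2, which travels with elongating RNA polymerase II, and H3K36me2 is added by the Nsd enzymes and Ash1l, often over wide tracts between genes. Both H3K36 marks hinder PRC2 on the nucleosome that carries them.

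Starts of genes fell into a few mark classes, and these classes differed in DNA sequence. A start was given a mark when an island lay within 1 kb of it, for the 16457 protein-coding autosomal genes whose strand was known. The commonest class, with 5995 genes (36.4%), had none of H3K4me3, H3K27ac, H3K4me1 and H3K27me3. The class with H3K4me3, H3K27ac and H3K4me1 held 4161 genes, H3K4me3 by itself 2156, H3K4me3 with H3K27ac 1954, H3K4me3 with H3K4me1 910, H3K27me3 by itself 456 and the bivalent pair of H3K4me3 and H3K27me3 393. The following RefSeq promoters of GRCm38.p6 show that contrast. Each runs 5′ to 3′ over 300 bases, 250 before and 50 after the annotated start, with every CG dinucleotide in capitals, and comes from the gene of the lists described below whose CG count lay nearest its class median. Polr2b, a subunit of RNA polymerase II (chr5:77310234-77310533, plus strand), has H3K4me3 and H3K27ac at its start and 20 CG. Notch1, the receptor that keeps neural progenitors undifferentiated (chr2:26503773-26504072, minus strand), has H3K4me3, H3K27ac and H3K4me1 and 23 CG. Tubb3, the neuronal beta-tubulin (chr8:123411303-123411602, plus strand), is bivalent and has 26 CG, and it is 1 of 4 list genes of that class. Foxa2, a regulator of endoderm and floor plate (chr2:148046920-148047219, minus strand), has H3K27me3 and 12 CG. Hbb-bs, an adult beta-globin (chr7:103827879-103828178, minus strand), has none of the 4 marks and 2 CG.
Polr2b: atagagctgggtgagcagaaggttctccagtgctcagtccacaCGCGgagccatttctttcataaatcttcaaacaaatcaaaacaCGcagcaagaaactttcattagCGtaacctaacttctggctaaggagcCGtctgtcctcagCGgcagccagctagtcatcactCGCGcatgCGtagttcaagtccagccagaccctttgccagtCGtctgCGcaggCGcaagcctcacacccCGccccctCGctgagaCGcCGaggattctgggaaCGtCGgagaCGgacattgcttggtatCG
Notch1: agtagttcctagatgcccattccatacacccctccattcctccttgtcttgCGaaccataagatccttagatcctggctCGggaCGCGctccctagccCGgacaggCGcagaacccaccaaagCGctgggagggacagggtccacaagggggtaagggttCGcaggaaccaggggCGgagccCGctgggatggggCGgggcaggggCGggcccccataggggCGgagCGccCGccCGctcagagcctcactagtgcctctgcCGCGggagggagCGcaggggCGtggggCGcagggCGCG
Tubb3: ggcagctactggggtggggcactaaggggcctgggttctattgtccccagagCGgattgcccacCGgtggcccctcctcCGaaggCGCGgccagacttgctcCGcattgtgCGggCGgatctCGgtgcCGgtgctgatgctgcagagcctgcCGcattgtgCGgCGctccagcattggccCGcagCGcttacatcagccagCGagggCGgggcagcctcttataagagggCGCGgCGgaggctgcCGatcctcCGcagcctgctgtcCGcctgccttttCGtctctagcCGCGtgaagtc
Foxa2: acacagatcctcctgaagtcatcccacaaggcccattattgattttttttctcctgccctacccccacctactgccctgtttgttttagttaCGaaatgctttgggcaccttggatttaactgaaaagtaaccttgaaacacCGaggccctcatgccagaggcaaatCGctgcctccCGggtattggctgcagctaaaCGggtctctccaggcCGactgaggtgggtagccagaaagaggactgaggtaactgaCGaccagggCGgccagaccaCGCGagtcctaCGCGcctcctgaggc
Hbb-bs: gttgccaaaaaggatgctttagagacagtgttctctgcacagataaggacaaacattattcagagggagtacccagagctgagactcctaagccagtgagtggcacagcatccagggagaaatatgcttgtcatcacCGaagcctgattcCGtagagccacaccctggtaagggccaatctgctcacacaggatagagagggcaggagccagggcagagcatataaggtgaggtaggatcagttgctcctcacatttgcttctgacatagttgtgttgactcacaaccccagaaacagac

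Across all 14811 such promoters the median was 14 CG, and 94.8% held at least 1 CG, a motif that reads the same on both strands. Promoters with none of the 4 marks had a median of 2 CG, with an interquartile range of 1 to 5. Every H3K4me3 class named above had a median of 20 to 23 CG, and H3K27me3 by itself had 12, with an interquartile range of 4 to 24. Bivalent promoters had a median of 22 CG. By single marks, the median was 22 CG at starts with H3K4me3 and 3 at starts without it. For H3K27me3 it was 18 with the mark, bivalent starts included, and 14 without. By single marks, the contrast in CG was thus wide for H3K4me3 and narrower for H3K27me3. The latter differed with H3K4me3, however. H3K27me3 by itself had 12 CG against 2 with none of the 4 marks, whereas bivalent promoters had 22 against 20 for H3K4me3 by itself.

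H3K36me3 over the body divided the H3K4me3 classes. A body was counted as marked when islands covered at least 25% of the span of a gene of at least 5 kb. With H3K4me3, H3K27ac and H3K4me1 at the start, 73.8% of genes had H3K36me3 over the body, and with H3K4me3 and H3K27ac 64.4% did. With H3K4me3 by itself the share was 20.9%, with H3K4me3 and H3K4me1 it was 30.7%, and over all classes it was 37.4%. Genes with H3K27me3 by itself at the start had H3K36me3 over the body in 3.29% and H3K27me3 over the body in 43.7%, and bivalent genes in 2.62% and 16.9%. The 47 genes with all 4 marks at the start stood with the acetylated classes, at 62.2% with H3K36me3. Classes with H3K27ac thus had the higher shares of H3K36me3 bodies among those of at least 100 genes.

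**Figure D1:**
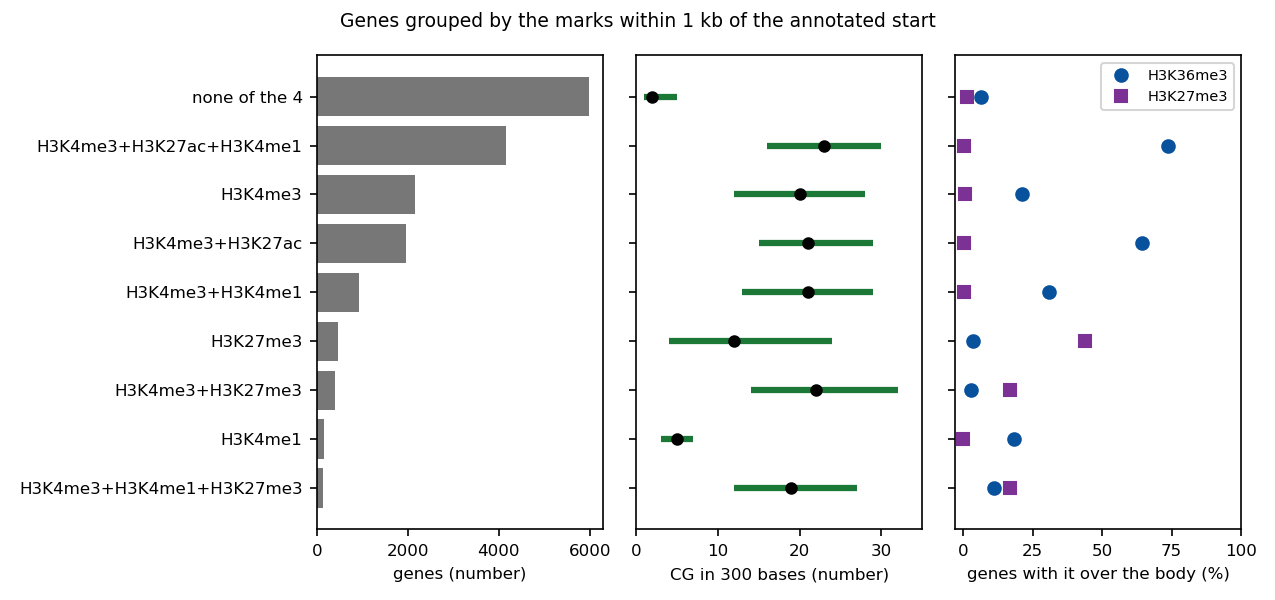
Genes grouped by the marks within 1 kb of the start, with classes of at least 100 genes shown. The left panel gives the number of genes, the middle panel the median (dot) and interquartile range (bar) of CG dinucleotides in 300 bases, and the right panel the percent of genes of at least 5 kb with H3K36me3 (circles) or H3K27me3 (squares) over the body. Classes with H3K27ac lie at 64.4% and 73.8% for H3K36me3, and H3K27me3 by itself lies at 43.7% for H3K27me3.

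The 6 marks covered very different lengths of the 2431 Mb of autosome between the outermost genes or islands. H3K36me3 covered 187 Mb (7.68%) in 8207 islands with a mean width of 22757 bp. H3K36me2 covered 68.9 Mb (2.83%) in 4556 islands of 15122 bp, H3K4me1 66.3 Mb (2.73%) in 35100 islands of 1889 bp, and H3K27me3 42.2 Mb (1.74%) in 11593 islands of 3643 bp. H3K4me3 covered 42.0 Mb (1.73%) in 22039 islands of 1905 bp and H3K27ac 35.7 Mb (1.47%) in 18311 islands of 1948 bp. The H3K36 marks thus lay in wide tracts and the other 4 in short islands. The H3K36 lists carry a window of 800 bp and a gap of 2400 bp in their headers, and their islands lie at least 3200 bp apart, against 400 bp in the other 4 lists, and the part of these settings in the widths was not tested. Reads inside autosomal islands were between 1068962 for H3K36me2 and 4537175 for H3K4me3, and the total depth of each library is unknown. Chromosome 11 had the highest share of H3K4me3 (2.52%) and H3K36me3 (11.2%) and chromosome 14 the lowest (1.24% and 5.33%). H3K36me2 was highest on chromosome 13 (4.80%) and lowest on chromosome 7 (1.46%).

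Most markers of the labelled cell type carried marks of activity. The label was checked on 14 genes of neural stem cells and radial glia, the dividing progenitors of the cortex, counting a mark at an end when an island lay within 1 kb of either annotated end. Of these, 13 had H3K4me3 at an end, against 60.7% of all 20665 protein-coding autosomal genes. H3K27ac was at an end of 10, against 38.9% of all genes, and H3K36me3 at an end of 8, against 32.1%. H3K4me1 was at 6, against 36.1%, H3K27me3 at 3, against 7.9%, and H3K36me2 at 0, against 1.23%. Sox2, the progenitor factor (chr3:34649995-34652461), was covered over 100% of its span by H3K4me3 and by H3K27ac. Slc1a3, the glutamate transporter of radial glia (chr15:8634124-8710807), carried H3K27ac over 49.8%, H3K4me1 over 39.7% and H3K36me3 over 95.8%. Vim, a filament protein of progenitors, had H3K36me3 over 98.9% and Fabp7, a lipid-binding protein of radial glia, over 80.8%. Pax6, the cortical progenitor factor (chr2:105668896-105698410), had H3K36me3 but none of H3K4me3, H3K27ac and H3K4me1 at its outermost ends, while 26.4% of the gene lay in H3K4me3 and 73.2% in H3K36me3. The 3 genes with H3K27me3 at an end were Lhx2, Prom1 and Id4. Id4, an inhibitor of differentiation (chr13:48261116-48266028), was covered by H3K27me3 over 77.9% and by H3K4me3 over 54.7%, with no H3K27ac.

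Most markers of neurons had H3K27me3. Of 10 neuronal genes, 8 had H3K27me3 at an end (7.9% of all genes), 4 had H3K4me3 (60.7%) and 1, Map2, had H3K27ac (38.9%). Neurod2 and Neurod6, factors of cortical excitatory neurons, were covered by H3K27me3 over 100% of their spans, Tbr1 over 56.1% and Slc17a7, the vesicular glutamate transporter, over 53.5%. Map2, a microtubule protein, had H3K36me3 over 121 kb and H3K36me2 over 26.4 kb of its 267 kb. Map2 and Snap25, a protein of synaptic vesicle release, were the 2 without H3K27me3 at an end, and neither had an H3K27me3 island inside the gene. Among 10 markers of astrocytes and oligodendrocytes, 5 had H3K4me3 at an end (60.7% of all genes), 3 H3K27ac (38.9%) and 5 H3K4me1 (36.1%). H3K27me3 was at an end of 1, Pdgfra of oligodendrocyte precursors (7.9% of all genes). In a list of 10, these counts are close to the shares of all genes. Aldh1l1, an astrocyte enzyme, had H3K4me3, H3K27ac and H3K4me1 at an end and H3K36me3 over 38.0% of its span, and S100b, a calcium-binding protein, had H3K4me3 and H3K4me1 at an end and H3K36me3 over 39.0%. Olig1 and Olig2, factors of glial and progenitor cells, had H3K4me3 over 100% and H3K27ac over 98.5% and 79.2%. Gfap, the filament of mature astrocytes, had no mark but H3K4me1 at an end, and Sox10 and Mog of the oligodendrocyte lineage had no island of any mark. Of 6 markers of microglia and blood and 7 of endothelium and mesenchyme, 0 had H3K27ac at an end (38.9% of all genes) or H3K27me3 (7.9%). H3K4me3 was at an end of 1 and 2 of them (60.7% of all genes). In lists this short, 0 with H3K27me3 is close to the share of all genes. Inside the genes, Ptprc, a phosphatase of blood cells, had 13.4 kb of H3K27me3, and Pecam1, an adhesion protein of endothelium, 7.20 kb of H3K27ac. Dcx and Gata1 were not found on the autosomes.

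The 3 marks of promoters and enhancers, H3K4me3, H3K27ac and H3K4me1, shared far more length than the mean over circular shifts. For each pair, the shared length was divided by its exact mean over all circular shifts of 1 list along each autosome, so a ratio of 1 means a shared length equal to that mean. H3K4me3 and H3K27ac shared 19.3 Mb against a shift mean of 0.630 Mb, a ratio of 30.7 with an autosome range of 22.3 to 41.6. The ratio was 22.4 (16.8 to 29.4) for H3K27ac and H3K4me1 and 14.8 (10.9 to 19.2) for H3K4me3 and H3K4me1. By islands sharing at least 1 bp, 14349 of 18311 H3K27ac islands (78.4%) met H3K4me1 against a shift mean of 932, and 12336 (67.4%) met H3K4me3 against 609. In the other direction 11066 of 22039 H3K4me3 islands (50.2%) met H3K27ac. Most H3K27ac islands thus met an H3K4 mark, whereas many islands of each H3K4 mark met no H3K27ac.

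The partner of H3K27ac went with position. Of H3K27ac islands, 9283 met both H3K4me3 and H3K4me1, and 56.4% of these touched the kilobase around a gene end. For the 3053 that met H3K4me3 and no H3K4me1, the share at gene ends was 74.6%. It was 3.73% for the 5066 that met H3K4me1 and no H3K4me3, the arrangement usually read as an enhancer in use, and 909 islands met neither. H3K4me1 had 15497 islands (44.2%) that met neither H3K4me3 nor H3K27ac, and 3.80% of these were at gene ends. H3K4me3 islands that met H3K27ac held a median of 123 reads per kb and were 2200 bp wide, against 53.9 reads per kb and 1200 bp for those that did not. Those that met H3K27me3 held 48.8 reads per kb, against 82.5 for those that did not. Among H3K4me3 islands without H3K27ac, the medians were closer, at 46.7 with H3K27me3 and 55 without it. The 93 H3K4me3 islands that met both H3K27ac and H3K27me3 held 134.5. Acetylated H3K4me3 islands were thus the denser and wider, with or without H3K27me3.

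H3K27me3 lay apart from the marks of activity and of H3K36. Its shared length was 0.124 times the shift mean with H3K27ac, 0.0876 times with H3K36me2 and 0.0546 times with H3K36me3, and no autosome had a ratio above 1 for these 3 pairs. In islands, 78 H3K27ac islands met H3K27me3 against a shift mean of 449, and 48 of 11593 H3K27me3 islands met H3K36me3 against 1040. Part of that small overlap lay in few islands, since without the 1% of islands with most reads per kb H3K27me3 and H3K36me3 shared 329 bins of 200 bp, against 906 with them. H3K4me3 was the exception among active marks, sharing 1.13 Mb with H3K27me3 against 0.740 Mb, a ratio of 1.53 that was above 1 on 18 of 19 autosomes and 0.739 on chromosome 19. Of H3K27me3 islands, 1354 (11.7%) met H3K4me3, against a shift mean of 538. Asking that 50% of the H3K27me3 island be covered left 158 against a mean of 165, whereas 733 H3K4me3 islands were covered to that extent by H3K27me3 against 402. H3K4me1 and H3K27me3 had a bp ratio of 0.784, above 1 on 4 autosomes, although 1041 H3K27me3 islands met H3K4me1 against a mean of 797, so more islands met than the shared length would show.

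H3K36me2 and H3K36me3 kept largely to different places. They shared 2.85 Mb against a shift mean of 5.19 Mb, a ratio of 0.549 with an autosome range of 0.200 to 1.65, and chromosome 17 was the only autosome above 1. Without the 25% of islands with fewest reads per kb in each list, the ratio was 0.330. Of 4556 H3K36me2 islands, 332 (7.29%) met H3K36me3 against a mean of 523, and the median distance to the nearest H3K36me3 island was 175 kb. Both had more H3K27ac and H3K4me1 on them than the shift mean. H3K27ac had a ratio of 4.05 with H3K36me2 and 2.58 with H3K36me3, and H3K4me1 had 3.78 and 2.05, all above 1 on 19 of 19 autosomes. H3K4me1 islands met 2351 (51.6%) of H3K36me2 islands against a mean of 796. By shared length, H3K4me3 had a ratio of 1.53 on H3K36me3 (19 of 19 autosomes above 1) and 0.934 on H3K36me2 (5 of 19), although 810 H3K4me3 islands met H3K36me2 against a mean of 679, and the ratio on H3K36me2 was 0.572 without the 25% weakest islands. By H3K4me3 islands covered to at least 50%, however, the ratios were close, with 1737 islands in H3K36me3 against a mean of 1735 and 670 in H3K36me2 against 614. The wide H3K36me2 tracts therefore held H3K4me1 and H3K27ac more densely than the autosomes at large, and no more H3K4me3 by length than the shift mean.

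**Figure D2:**
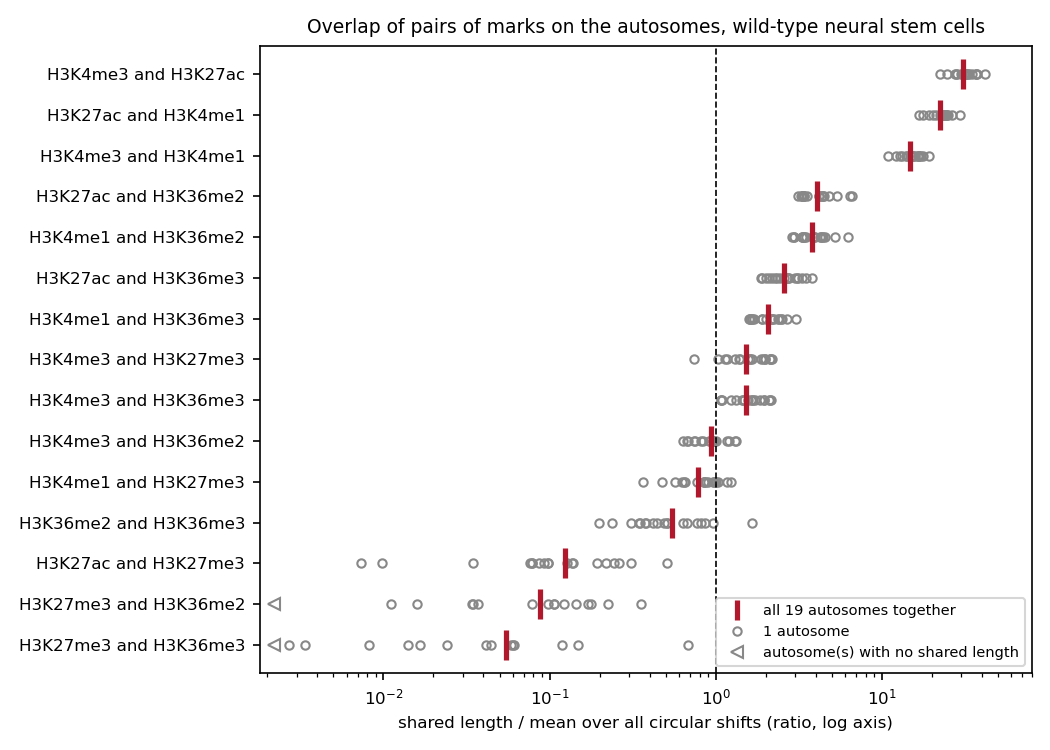
Shared length of each pair of marks over the mean of all circular shifts, on a log axis, with 1 (dashed line) meaning equal to that mean. Red bars are all 19 autosomes together, open circles single autosomes and triangles autosomes with no shared length. The ratio is 30.7 for H3K4me3 and H3K27ac at the top and 0.0546 for H3K27me3 and H3K36me3 at the bottom.

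Over bins of 200 bp, 84.9% of the autosomes carried none of the 6 marks. A single mark lay on 12.9% of bins (85.5% of marked bins), 2 marks on 1.44%, 3 on 0.622%, 4 on 0.123%, 5 on 326 bins and all 6 on 0. The commonest state was H3K36me3 by itself, 170.5 Mb or 7.01% of bins and 46.4% of marked bins. H3K36me2 by itself took 58.3 Mb (2.40%), H3K27me3 by itself 40.2 Mb (1.65%), H3K4me1 by itself 28.0 Mb (1.15%) and H3K4me3 by itself 14.2 Mb (0.586%). The next 3 were combinations of the active marks, H3K4me3 with H3K27ac and H3K4me1 on 7.71 Mb, H3K4me3 with H3K27ac on 7.39 Mb and H3K27ac with H3K4me1 on 6.91 Mb. These 8 states held 90.7% of marked bins, so most of the marked genome could be described with few states.

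Set against the product of the single-mark shares on each autosome, the combinations of active marks were many times longer. The triple of H3K4me3, H3K27ac and H3K4me1 was 494 times its product of 0.0156 Mb, H3K4me3 with H3K27ac 13.7 times and H3K27ac with H3K4me1 8.09 times. H3K27ac by itself ran the other way, at 2.71 Mb and 0.0904 times the product. H3K27ac with H3K4me1 inside H3K36me2 took 2.21 Mb, 89.9 times the product, and inside H3K36me3 2.28 Mb, 30.9 times. The product takes the marks as independent, so both ratios include the overlap of H3K27ac with H3K4me1, 22.4 times its shift mean. Taken as pairs, H3K27ac had a ratio of 4.05 with H3K36me2 and 2.58 with H3K36me3. H3K4me3 with H3K27me3 alone took 0.821 Mb, 1.30 times.

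Several states differed in their place relative to genes. Bins within 1 kb of either end of a protein-coding gene made up 3.07% of all bins, and 42.4% of them were marked. Gene bodies made up 38.8% with 25.8% marked, and the space between genes 58.1% with 6.54% marked. H3K36me3 by itself was 89.7% in gene bodies, where it took 16.2% of bins, against 12.8% at gene ends and 0.565% between genes. H3K4me3 with H3K27ac lay 64.2% at gene ends, a share of gene-end bins 20.9 times its share of all bins, and H3K4me3 by itself had a ratio of 16.9. The triple had 9.27 at ends, with 28.5% of its length there and 51.6% in bodies. H3K27ac with H3K4me1 had 1.08 at ends and lay 59.1% in bodies and 37.6% between genes, at a median of 28.0 kb from the nearest gene end. H3K36me2 by itself took 0.370% of gene-end bins (0.154 times) and 2.48% of intergenic bins (1.03 times), and its median distance to a gene end was 111 kb, against 49.2 kb for all bins and 11.9 kb for H3K36me3 by itself. H3K27me3 by itself was 58.5% between genes, 36.3% in bodies and 5.15% at ends, at a median of 20.4 kb. Its ratios were 1.01 between genes, 0.936 in bodies and 1.68 at ends. Its shares of bodies and of intergenic space were thus close to those of all bins. H3K36me2 was thus the state farthest from gene ends among these 8, and the acetylated H3K4me3 state, at 0.653 kb, the nearest.

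**Figure D3:**
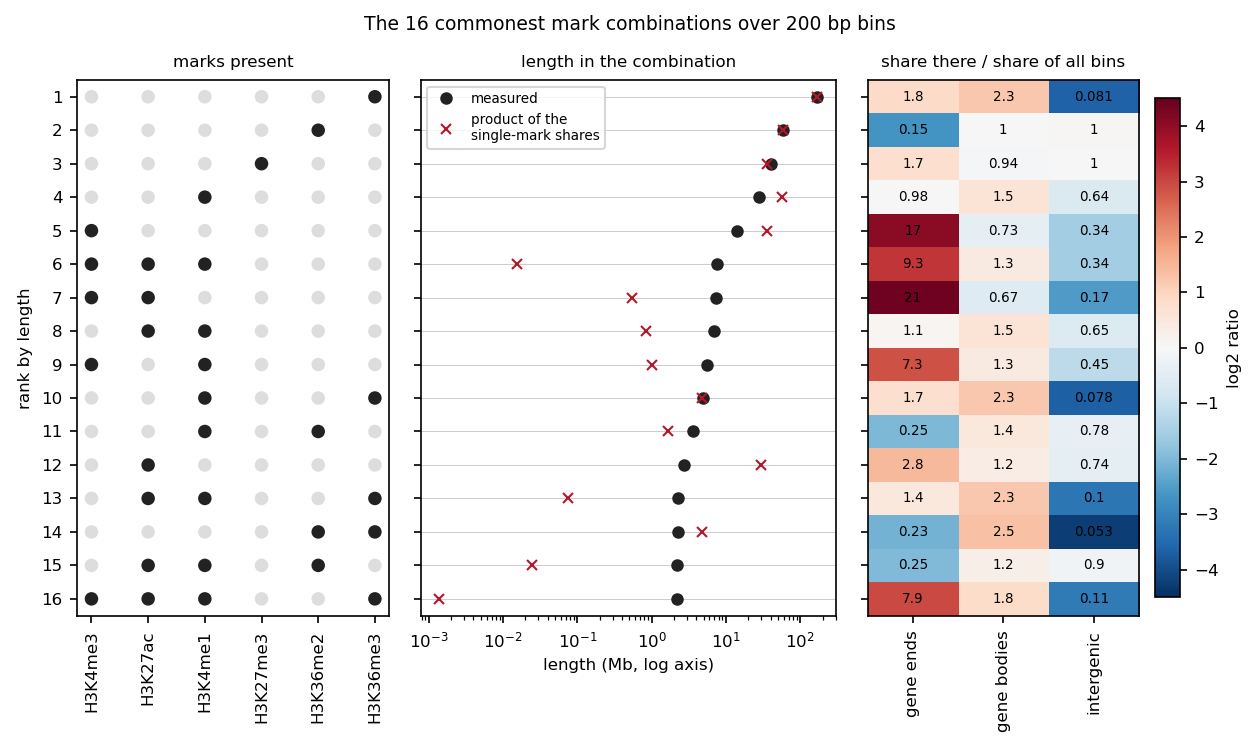
The 16 commonest combinations of marks over 200 bp bins, ranked by length. Dots at the left show which marks are present, the middle panel gives the measured length (dots) and the product of the single-mark shares (crosses) in Mb on a log axis, and the right panel gives the share of gene-end, gene-body and intergenic bins over the share of all bins, with colour on a log2 scale. H3K4me3 with H3K27ac has a gene-end ratio of 20.9 and H3K36me2 by itself 0.154.

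Starts and 3′ ends of genes carried different marks. Of the 16457 stranded genes, 59.4% had H3K4me3 within 1 kb of the start and 8.08% within 1 kb of the 3′ end. H3K27ac was at 38.0% of starts and 5.77% of 3′ ends, and H3K4me1 at 33.1% of starts and 7.63% of 3′ ends. For H3K27me3 the shares at starts and 3′ ends were 6.45% and 2.87%, and for H3K36me2 0.845% and 0.565%. H3K36me3 was the reverse, at 10.2% of starts and 30.6% of 3′ ends. Among the 7569 genes of at least 20 kb, H3K4me3 was most frequent 0.4 kb into the gene, on 66.9% of genes, and H3K27ac 0.8 kb in, on 34.2%. H3K4me1 lay on 5.79% at the start itself and on 29.7% at 1.2 kb into the gene. It lay on 7.09% at 2 kb before the start and on 23.7% at 2 kb into the gene, so the profile was much higher on the gene side. H3K36me3 was lowest beside the start, on 4.62%, and reached 23.8% at 10 kb into the gene and 38.5% at 5 kb before the 3′ end, falling to 15.4% at 10 kb beyond it. Going into the gene, the peaks of H3K4me3, H3K27ac and H3K4me1 followed in that order, with H3K36me3 over the body beyond them.

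**Figure D4:**
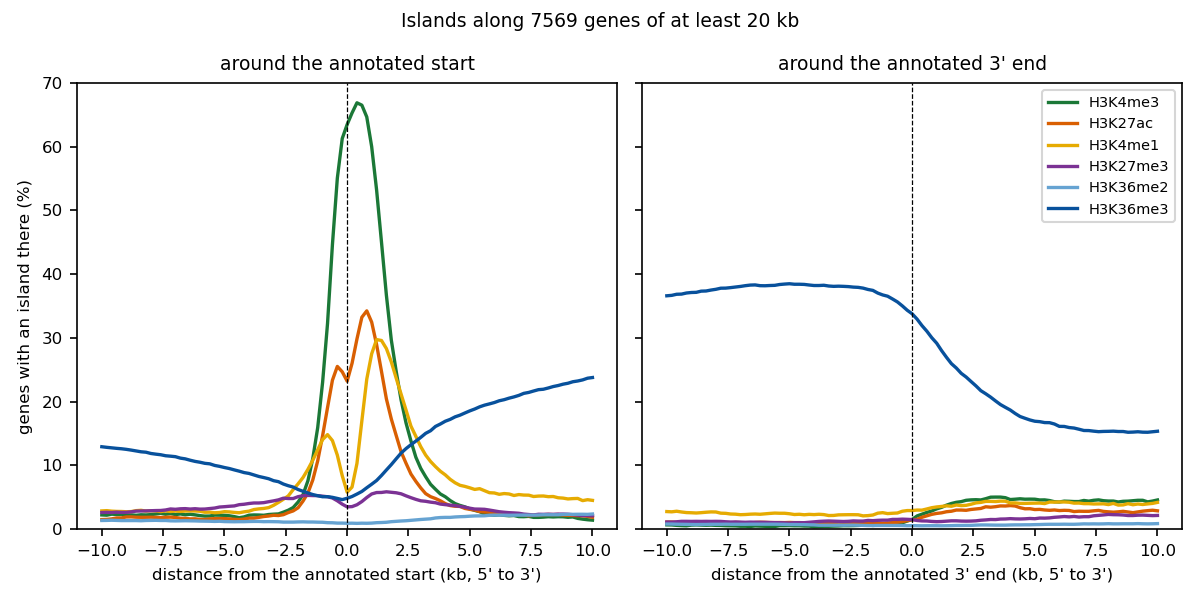
Percent of 7569 genes of at least 20 kb with an island at each distance (kb, 5′ to 3′) from the annotated start (left) and 3′ end (right), 1 line per mark. H3K4me3 reaches 66.9% at 0.4 kb, H3K4me1 lies at 5.79% at the start and 29.7% at 1.2 kb, and H3K36me3 climbs to 38.5% at 5 kb before the 3′ end.

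Along the same genes cut into 10 equal parts, H3K36me3 covered on average 11.2% of the first and 36.9% of the last. H3K36me2 covered 1.80% of the first, was highest in the second at 2.39% and reached 0.718% in the last. In the 272 genes of at least 20 kb with at least 10% of the span under each of the 2 marks, the centre of H3K36me2 was nearer the start than that of H3K36me3 in 234 (86.0%), at medians of 30.4% and 66.4% of the gene. In most genes that carried both, H3K36me2 was thus centred towards the start and H3K36me3 towards the 3′ end. Centres do not show that the 2 marks lay apart. In Setd5, H3K36me2 covered 24.2% of the span and H3K36me3 98.5%, so the 2 overlapped there.

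H3K36me3 bodies were frequent among genes of basic cell functions and of division. Of 12 genes of at least 5 kb for ribosomal proteins, RNA polymerase II and splicing, 12 had H3K36me3 over the body, against 36.2% of all 16096 genes of that length. All 20 genes of that list had H3K4me3 and H3K27ac at an end, against 60.7% and 38.9% of all genes. H3K27me3 was at an end of 0, which in a list of 20 is close to the 7.9% of all genes. Among cell cycle genes the count was 14 of 16, with Mki67, the proliferation marker, at 98.3% of the span, Top2a, a topoisomerase of dividing cells, at 99.4%, and Plk1, a mitotic kinase, at 100%. Cdk2 and E2f1, which act at entry into DNA replication, had H3K4me3 and H3K27ac at an end and H3K36me3 over 0%. Among 18 enzymes that write or erase these marks, 17 had H3K36me3 bodies, among them Setd2, the H3K36me3 writer, at 84.8%, Nsd1, an H3K36me2 writer, at 94.3%, and Eed and Suz12, subunits of PRC2, at 100% and 96.8%. Kdm2b, a demethylase that recruits a Polycomb complex to CpG islands, was the 1 below the threshold, at 9.90%. The longest unbroken runs of H3K36me3 were 155.4 kb over Usp34, a ubiquitin protease, 155.2 kb over Ttc19 and Ncor1, a co-repressor, and 137.8 kb over Herc1, a giant ubiquitin ligase. By share of the span in H3K36me3 alone, 11 genes of at least 5 kb lay wholly in it, the longest being Slc16a4, Htr2b and Mss51.

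H3K36me2 covered few genes. Of the 16096 genes of at least 5 kb, 219 (1.36%) had it over the body, with a median span of 55.2 kb against 25.9 kb for all such genes. H3K36me3 bodies were as frequent among them, 80 of 219, as among all genes, 36.2%. H3K27ac was at an end of 56.6% of them, against 43.4% of all. In the list of late neuronal and sensory genes, 2 of 14 had it. Nlgn1, for adhesion at synapses (chr3:25421808-26332866), had it over 328 kb of its 911 kb, and 13.6 kb of H3K36me3. Aqp4, the water channel of astrocyte end-feet, had 32.3%. The genes lying wholly in H3K36me2 without another mark numbered 7, the longest being Sntn, a protein of cilia, and the placental prolactin relatives Prl7a2 and Prl7b1 on chromosome 13. Its longest unbroken runs, of 56, 52.8 and 49.6 kb, lay 729 kb from Marcks, 806 kb from Myc and 327 kb from Hdgfl1, with no protein-coding gene under them.

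H3K27me3 lay over developmental regulators of other tissues and body regions. All 22 Hox genes of the list, which set position along the body axis, had it at an end, against 7.9% of all genes. Of those of at least 5 kb, 9 of 9 had it over the body, against 2.7% of all genes of that length. Hoxa10, Hoxc4, Hoxd3 and Hoxd10 were covered over 100% of the span. Hoxa2 and Hoxa5 were bivalent. Of 20 regulators of non-neural lineages, some of which also act elsewhere in the nervous system, 16 had H3K27me3 at an end. H3K4me3 was at an end of 3 (60.7% of all genes) and H3K27ac of 0 (38.9%). Of those of at least 5 kb, 12 of 17 had H3K27me3 over the body. Gata2 of blood, Pdx1 of pancreas, Cdx2 of gut and Nkx2-5 of heart were covered over 100%. Eomes, also a factor of cortical intermediate progenitors, had H3K27me3 over 37.9% with H3K4me3 and H3K4me1 at its start. Myf5 of muscle had no island of any mark, so not every regulator of the list was under H3K27me3.

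The longest run of H3K27me3 alone, 125 kb, contained Six6, an eye-field factor, followed by 113.6 kb within Iqch and 83.6 kb over Hoxc8, Hoxc6, Hoxc5 and Hoxc4. Tfap2b and Alx1, factors of neural crest and face, lay wholly in it, as did Hoxd3, and 39 genes of at least 5 kb did so in all. Among late neuronal and sensory genes, 5 of 18 had H3K27me3 at an end, against 7.9% of all genes. Scn1a, a sodium channel, had H3K4me3 and H3K4me1 with it, and Kcna1, a potassium channel, had it over 30.0%. The odour and pheromone receptor genes Olfr1, Olfr16 and Vmn1r1 had no island of any mark. Opn1sw, the short-wave opsin, lay wholly under an H3K36me3 island with no other mark, and an island wider than a gene cannot be assigned to it among its neighbours.

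Each combination of active marks had its own leading genes. The 3 genes of at least 5 kb with the largest share of their span in H3K4me3 with H3K27ac were Emx2, a patterning factor of the cortex, at 57.0%, Tgif1, whose human counterpart is mutated in holoprosencephaly, at 55.7%, and Naif1 at 54.7%. Its longest runs were 6.2 kb at Meis2, and 5.2 kb each at Etv1 and Zic2, all developmental transcription factors. For the triple with H3K4me1 they were Zbtb18, a repressor in cortical development, at 45.2%, and Cdkn2c and Cdkn1b, inhibitors of cell cycle kinases, at 44.2% and 42.9%. The longest runs of the triple were 7.0 kb and 6.6 kb in Tcf4, a basic helix-loop-helix factor, and 6.6 kb in Zbtb20, a factor of hippocampus and astrocytes. H3K27ac with H3K4me1 took 34.9% of Sdc3, a neural syndecan, 34.6% of Fgfrl1, a receptor of the FGF family, and 34.5% of Trmt61a, and its longest run was 10.2 kb in Tmem267. H3K4me3 by itself took 52.3% of Hes7, the oscillator of somite formation, 50.2% of Ntn3, a netrin, and 48.4% of Slitrk5, a synaptic adhesion protein. H3K4me1 by itself took 47.7% of Abhd15, 46.8% of Lynx1, a modulator of nicotinic receptors, and 45.6% of Slc48a1, a heme transporter.

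**Figure D5:**
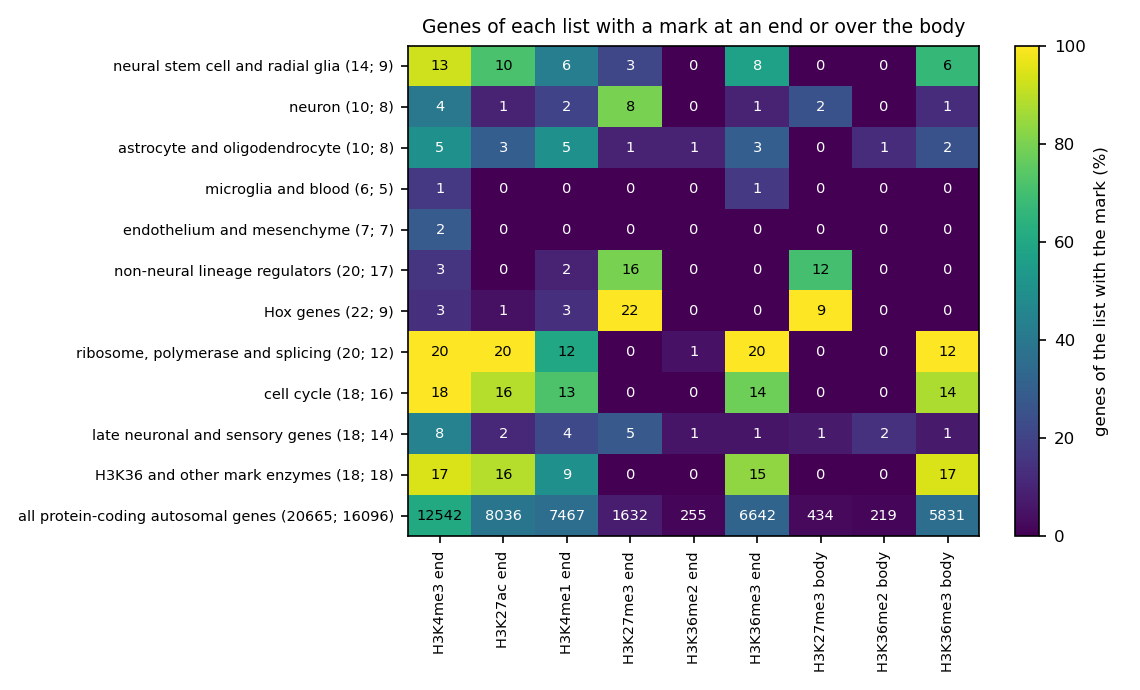
Genes of each list with a mark within 1 kb of an end, or over at least 25% of the span. Colour is the percent of genes and the number in each cell is the count; brackets give the genes found and, after the semicolon, those of at least 5 kb. H3K27me3 at an end fills the Hox row at 22 of 22 and is 0 in the ribosome, cell cycle and enzyme lists. All genes are in the bottom row, at 7.9% for that mark.

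Along the chromosome, runs of the active combinations often bordered states that differed from them by a single mark. A run ends wherever an island of any mark begins or ends, so such neighbours largely follow from how runs were cut. Whether the islands were nested or offset was not tested. Of the neighbours of runs with H3K4me3 and H3K27ac, 41.9% were H3K4me3 by itself and 34.5% the triple. Runs of H3K27ac with H3K4me1 bordered H3K4me1 by itself in 38.7% and the triple in 25.6%. Runs of H3K27me3 bordered unmarked bins in 88.5% and the bivalent pair in 5.82%. H3K36me3 bordered unmarked bins in 56.8% and H3K4me1 within H3K36me3 in 25.4%. H3K36me2 bordered unmarked bins in 53.8% and H3K4me1 within H3K36me2 in 30.3%. Median runs were 11200 bp for H3K36me3, 7000 bp for H3K36me2, 2200 bp for H3K27me3, 1000 bp for H3K4me1 and 800 bp for H3K4me3 and for each of the 3 acetylated combinations.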

How the data were processed

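FastQC, Bowtie2 2.2.3 and SICER 1.1 are named with GRCm38 (mm10) in the submitters' processing notes, and reads were single and 50 bp long. Per the file headers, both H3K36 lists came from SICER at a false discovery rate of 0.01, with 800 bp windows and 2400 bp gaps. The sources used here do not give the settings of the other 4 lists, or whether an input was a control. The whole number deposited beside each island has no column name, and its values were taken to be counts of reads, with no normalisation. Deposited starts were read as 0-based and ends as the last base.

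Autosomes were cut into bins of 200 bp from the first to the last gene or island (Python 3.11.15, numpy 2.4.6, pandas 2.3.3, matplotlib 3.10.9). Shift means are exact over all circular shifts, so nothing was drawn at random and no p-value is given. The code was tested on simulated lists. Genes were protein-coding RefSeq genes of GRCm38, with strand known for 16457 of 20665. Bins were assigned to gene ends (1 kb), then bodies, then intergenic space. Named genes were members of the 11 lists and, for the 8 commonest states, the 3 genes with the largest share of their span and the 3 longest runs, without predicted genes. Members and lists were chosen with earlier results of these data known. Alternatives dropped weak or dense islands, closed gaps, and changed the bin, window, gene set, overlap and autosomes. Depth outside islands is unknown. Many genes of the lists enter the counts without being named, and some are not reported here.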

Additional observations from a re-analysis of the deposited data

Results flagged for a closer look

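Chromosome X lay outside the autosomal map and held an H3K27me3 signal of its own. The wild-type list had 8193 H3K27me3 islands there, 41.4% of all its islands, covering 22.2 Mb. The other 5 marks had between 10 islands (H3K36me2) and 709 islands (H3K4me3) on that chromosome. The difference was not tested.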

How the results depend on the processing

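Of 265 alternative values over 104 results, 214 stayed within the limits, 47 moved past them and 4 changed direction against the shift mean. The limit was 1.5 times for a count and the 95% Wilson interval over bins for a share of bins, which is far narrower. No paired analysis was possible because each mark has 1 library and no replicate numbers are shared. Bins of 1000 bp, autosomes counted from position 1 and leaving out chromosomes 1, 4 and 15 moved no value past the limit. Without the 25% of islands with the fewest reads per kb, shared bins were 55162 for H3K4me3 and H3K4me1, 3258 for H3K4me3 and H3K27me3 and 2025 for H3K4me3 and H3K36me2. For H3K27ac they were 198 with H3K27me3, 11670 with H3K36me2 and 23879 with H3K36me3. For H3K4me1 they were 2502 with H3K27me3, 21659 with H3K36me2 and 33126 with H3K36me3. They were 284 for H3K27me3 and H3K36me2 and 4944 for H3K36me2 and H3K36me3. Fewer islands were used in that setting, and what moved each count was not tested. The triple then had 24505 bins, and 39.2% of gene-end, 20.7% of body and 5.10% of intergenic bins were marked. Late neuronal genes with H3K27ac at an end were then 1 and with H3K36me3 bodies 0, and glial genes with H3K36me3 bodies 1. Without the 1% of islands with the most reads per kb, H3K27me3 and H3K36me3 shared 329 bins. The marked shares were 43.2%, 26.1% and 6.74% with gaps of up to 2400 bp closed, 35.5%, 24.9% and 6.21% with an end window of 2500 bp, and 28.4%, 23.1% and 6.01% with all annotated genes. The wider window gave 2 ribosome, polymerase and splicing genes and 1 cell cycle gene with H3K27me3. Asking for 50% of the span left 0 neuronal, 0 glial and 0 late neuronal genes with H3K36me3 bodies. Asking that at least 50% of the island be covered turned the comparison with the shift mean for 531 H3K4me1 islands in H3K27me3 (0.825 times), 158 H3K27me3 islands in H3K4me3 (0.956), 180 H3K27me3 islands in H3K4me1 (0.655) and 2 H3K36me2 islands in H3K4me3 (0.278). The cause was not tested. Depth limits the weakest islands, and the unequal calling settings limit any comparison of widths between lists.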

Other observations

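A few islands held a large part of some lists. The 10 autosomal H3K36me3 islands with most reads per kb held 4.41% of that list's island reads, at 203 to 3381 reads per kb, against a median of 11.8 over its islands. The densest 1% of H3K27me3 islands held 14.4% of its island reads.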
